A study of Mus musculus with 12 samples.

Results

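The RNA-Seq libraries of EPR cKO and control proximal colon were examined for 10 genes that move chloride, bicarbonate, sodium and protons across the colon epithelium. The genes were Slc26a3, Slc26a6, Slc9a2, Slc9a3, Cftr, Best2, Slc4a4, Slc12a2, Clca4b and Atp12a, picked by symbol among the 55376 genes of the count table. EPR is a long noncoding RNA of epithelial tissues, listed in the table as Smim31. All 12 mice were 12 weeks old and carried an EPR allele in which loxP sites flank the promoter and exon 1. The 6 EPR fl/fl mice had no Cre and were the controls (their genotype label reads wt). From each mouse the upper part of the colon, nearest the cecum, was frozen whole and sequenced as total RNA depleted of ribosomal RNA. The 6 EPR cKO mice (EPR fl/fl;CDX2P-NLS Cre) also carried a Cre transgene under a human CDX2 promoter, which the study describes as active in epithelial cells from the end of the ileum through the whole colon. Because the controls lacked the transgene, loss of EPR and presence of Cre cannot be told apart.

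The colon takes up sodium chloride and water at the surface and secretes chloride and bicarbonate from the crypts. Uptake pairs an apical chloride-bicarbonate exchanger of the SLC26 family with an apical sodium-proton exchanger of the SLC9 family, and their combined work brings in salt without moving net charge. Secretion runs the other way. A basolateral cotransporter (Slc12a2) loads chloride, a basolateral sodium-bicarbonate cotransporter (Slc4a4) loads bicarbonate, and apical channels such as Cftr let the anions out into the lumen. Bicarbonate is also known to be needed for colonic mucus to swell and unfold after release.

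The 12 libraries held 13093904 to 33211041 counts. EPR ran from 21.3 to 58.1 read counts scaled to library size (CPM) in EPR fl/fl and from 0 to 0.424 CPM in EPR cKO, so each library matched its label. CPM values here were scaled by the trimmed mean of M values (TMM). Whole tissue was sequenced, and the libraries held both epithelium and muscle. A tissue composition score (the mean log2 CPM of 13 epithelium markers minus that of 10 smooth muscle markers) ran from 1.03 to 1.76 in EPR fl/fl and from 0.0964 to 3.64 in EPR cKO (exact permutation p = 0.0563, two-sided). EPR cKO replicate 1 had the lowest score, and its level of the smooth muscle gene Myh11 was 3202 CPM, against 397 to 845 CPM in the other EPR cKO libraries. In bulk tissue, fewer cells of a type and less RNA per cell cannot be told apart.

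None of the 10 transporter genes changed at the threshold used. All 10 passed the filter on low counts (at least 1 CPM in at least 4 libraries), and 0 had an adjusted p under 0.05 in edgeR's quasi-likelihood test with Benjamini-Hochberg adjustment over 15952 genes. Over all tested genes the share was 2.46% (0.884% higher and 1.57% lower in EPR cKO). With no adjustment, p was under 0.05 for 2 of the 10, Slc26a3 (higher) and Best2 (lower), where 11.1% of all tested genes were higher and 7.12% lower at that level. DESeq2 and limma-voom also called 0 of the 10, and limma-voom with quality weights called 1, Best2 (log2 fold change −1.60, adjusted p = 0.0303). That last fit called 1372 genes higher and 1891 lower among all 15952 tested genes, against 141 and 251 in edgeR. Log2 fold changes (EPR cKO relative to EPR fl/fl) ran from −1.32 to 0.99, with 6 above and 4 below 0 and a median of 0.02, which was also the median over all tested genes. The groups overlapped for all 10 genes, where 2.47% of all tested genes had groups that did not.

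**Figure D1:**
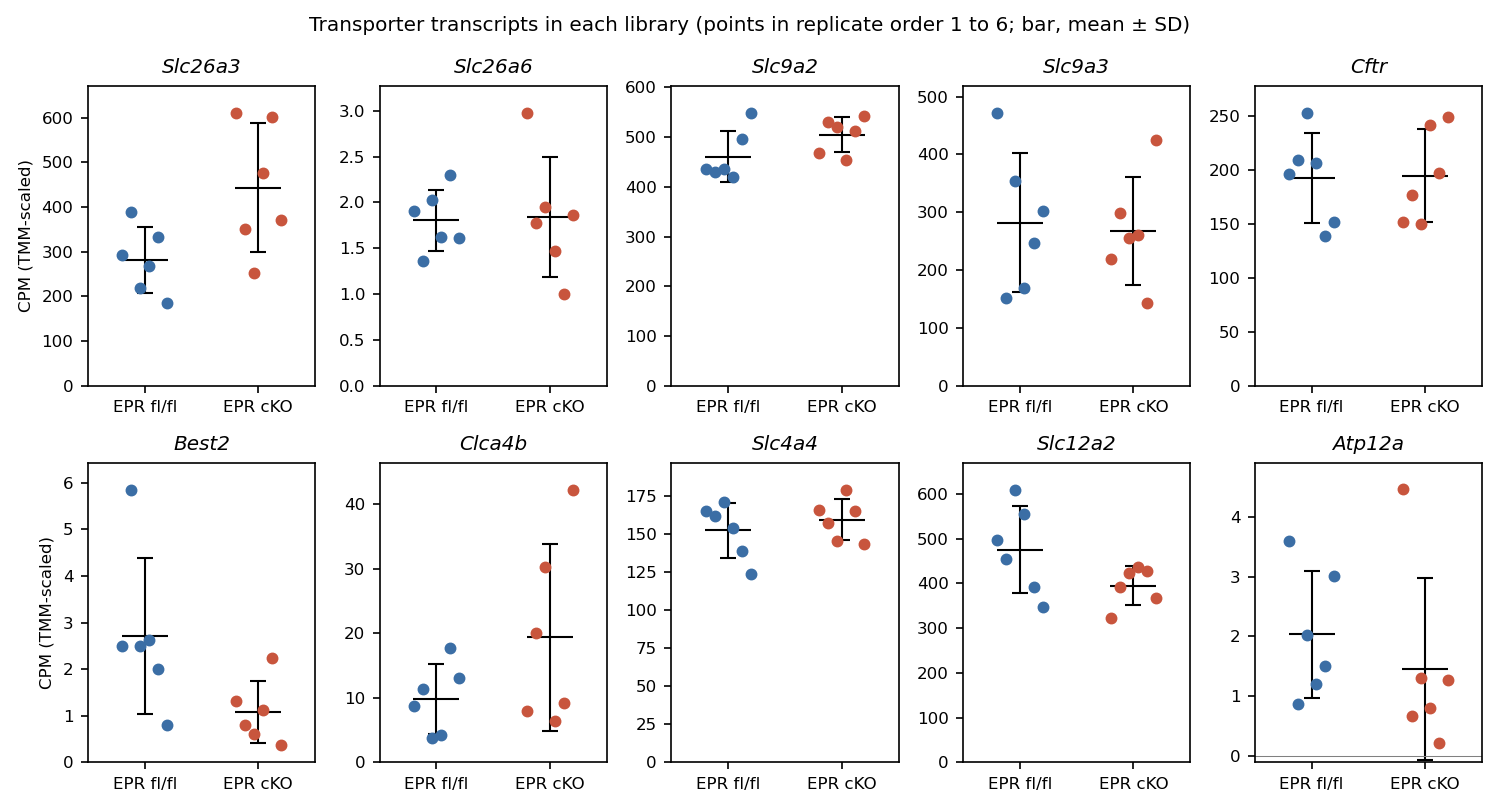
TMM-scaled CPM (y axis, linear, each panel on its own scale) of the 10 transporter genes in the 6 EPR fl/fl libraries (blue) and the 6 EPR cKO libraries (red), with 1 point per library in replicate order from left to right and the mean ± SD as a bar. The groups overlap in every panel. For Slc26a3 and Clca4b, 3 of 6 EPR cKO libraries lie above all controls, and for Best2 and Atp12a 3 of 6 lie below all controls.

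The order of the genes by level was compared per transcript length, as transcript shares corrected for exon length (TPM). In EPR fl/fl, Slc26a3 was the most abundant at 151 ± 47.0 TPM (SD, n = 6), followed by Slc9a2 at 115 ± 23.3 TPM, Slc12a2 at 113 ± 27.1 TPM and Slc9a3 at 83.1 ± 27.9 TPM. The ranges of these neighbours overlapped, and Slc9a2 exceeded Slc12a2 in 2 of the 6 control libraries. Cftr followed at 39.6 ± 9.39 TPM and Slc4a4 at 23.0 ± 3.45 TPM. Their ranges were apart from each other, and that of Slc4a4 was apart from that of Clca4b (5.20 ± 3.37 TPM). Best2 (1.89 ± 1.15 TPM), Slc26a6 (1.18 ± 0.337 TPM) and Atp12a (0.769 ± 0.326 TPM) were rare, with overlapping ranges. In EPR cKO the top of the order was again Slc26a3 (210 ± 71.4 TPM), Slc9a2 (115 ± 28.7 TPM), Slc12a2 (86.4 ± 23.2 TPM) and Slc9a3 (75.1 ± 37.9 TPM). There Slc9a2 exceeded Slc12a2 in 6 of 6 libraries. At the low end, Best2 (0.674 ± 0.480 TPM) stood below Slc26a6 (1.03 ± 0.255 TPM) in the mean.

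Among the apical anion exchangers, Slc26a3 had the larger difference. Slc26a3 encodes the exchanger DRA, whose loss in humans causes congenital chloride diarrhoea, and lies on chromosome 12 (31438219 to 31473917, mm10, plus strand, 21 exons). Its CPM ran from 186 to 390 with a median of 281 in EPR fl/fl, and from 252 to 610 with a median of 423 in EPR cKO. Replicates 1 (610 CPM), 5 (601 CPM) and 4 (476 CPM) of EPR cKO lay above all controls, and the other 3 lay within the control range. Group means were 282 ± 74.7 CPM for the controls and 443 ± 144 CPM for EPR cKO (SD, n = 6). This gave a log2 fold change of 0.65 (SE 0.23, 95% interval 0.16 to 1.15), or 1.57-fold, with an unadjusted p of 0.0131 and an edgeR adjusted p of 0.160. The estimate stayed above 0 in all 10 alternatives with all libraries (0.39 to 0.69) and when each of the 12 libraries was left out in turn (0.52 to 0.77), with adjusted p from 0.0724 to 0.310. In CPM the 2 highest EPR cKO libraries were those with the lowest (replicate 1) and the highest (replicate 5) tissue composition score. In TPM, replicates 5 (327 TPM), 4 (244 TPM) and 6 (222 TPM) of EPR cKO lay above all controls. Replicate 1 (189 TPM) then lay below the highest control (212 TPM). TPM in that library was low for its CPM in other genes too. Slc9a2 there was at 469 CPM, within the control range, but at 67.8 TPM, below all controls (81.6 to 147 TPM). In the same libraries, 8 of 10 enterocyte markers had positive log2 fold changes (median 0.40), and 0 passed an adjusted p of 0.05 in edgeR. At an unadjusted p under 0.05, 4 were higher and 1 lower, where 11.1% of all tested genes were higher and 7.12% lower. Car4 (−0.45) and Anpep (−0.19) were the 2 with negative values. The summed level of the 10 markers ran from 10772 to 17340 CPM in EPR fl/fl and from 15308 to 25876 CPM in EPR cKO, and no marker was at 0. In the control mean, Car1 (10224 CPM) and Cyp2c55 (3099 CPM) made up most of this sum (14773 CPM). The part of enterocyte content in the Slc26a3 value was not tested.

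Slc26a6, the related exchanger PAT1 that is best known from the small intestine (chromosome 9, 108854037 to 108912558, plus strand, 21 exons), was represented by 26 to 64 reads per library. It ran from 1.36 to 2.29 CPM (median 1.76) in EPR fl/fl and from 0.998 to 2.97 CPM (median 1.82) in EPR cKO. In CPM, EPR cKO 1 was the highest and EPR cKO 5 the lowest of the 12 libraries. In TPM, EPR fl/fl 5 (1.76 TPM) was above EPR cKO 1 (1.12 TPM), the library whose TPM was low for its CPM. The log2 fold change was 0.03 (SE 0.24, 95% interval −0.50 to 0.55, edgeR adjusted p = 0.961), and its sign depended on the setting.

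The 2 apical sodium-proton exchangers were abundant and differed in how much they varied. Slc9a2 (NHE2, chromosome 1, 40680574 to 40769273, plus strand, 12 exons) ran from 419 to 548 CPM (median 436) in EPR fl/fl and from 455 to 543 CPM (median 517) in EPR cKO. All 6 EPR cKO libraries lay above the control median, and 0 lay above the highest control. Its mean was 461 ± 50.5 CPM in the controls and 505 ± 35.4 CPM in EPR cKO, and the log2 fold change was 0.13 (SE 0.08, 95% interval −0.05 to 0.31, edgeR adjusted p = 0.412). This interval allows a level in EPR cKO of 0.968 to 1.24 times that of the controls. Slc9a3 (NHE3, the exchanger that carries most sodium chloride uptake, chromosome 13, 74121515 to 74169442, plus strand, 17 exons) varied 3.10-fold among the controls, from 152 to 471 CPM (median 274). In EPR cKO it ran from 143 to 425 CPM (median 258), a 2.97-fold range, and 4 of 6 libraries lay below the control median. Control and EPR cKO means were 282 ± 120 CPM and 267 ± 93.5 CPM, and the log2 fold change was −0.08 (SE 0.29, 95% interval −0.71 to 0.55, edgeR adjusted p = 0.897). The coefficient of variation over the control libraries was 42.6% for Slc9a3 and 11.0% for Slc9a2. At the SE of each gene, a log2 fold change of 1.19 would have been needed for a call of Slc9a3 and of 0.34 for Slc9a2.

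**Figure D2:**
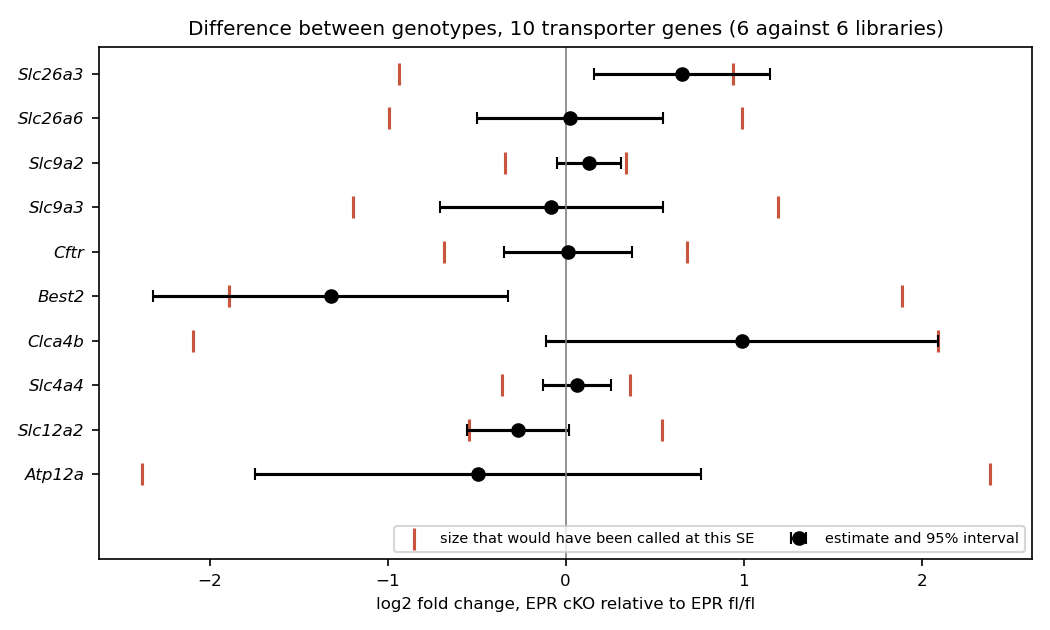
Log2 fold change of each transporter gene (x axis, EPR cKO relative to EPR fl/fl, 6 against 6 libraries), with the edgeR estimate as a dot, its 95% interval as a bar and, as red ticks, the size that would have been called at the SE of that gene. Every dot lies inside its ticks, the intervals of Slc26a3 (0.16 to 1.15) and Best2 (−2.32 to −0.33) do not reach 0, and those of Slc9a2 and Slc4a4 are the narrowest.

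Of the apical anion channels, Cftr was abundant and Best2 scarce. Cftr encodes the cyclic AMP-activated chloride and bicarbonate channel of crypt cells (chromosome 6, 18170687 to 18322768, plus strand, 28 exons). It ran from 138 to 252 CPM (median 201) in EPR fl/fl and from 150 to 249 CPM (median 187) in EPR cKO, so that the ranges nearly coincided. The log2 fold change was 0.01 (SE 0.17, edgeR adjusted p = 0.970), with a 95% interval from −0.35 to 0.37, or 0.787 to 1.30 times the control level. An antisense gene, Gm15592, covers 1.72% of the Cftr exon bases and had at most 0.678 CPM.

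Best2 encodes bestrophin 2, an anion channel known from mouse colonic goblet cells, where it passes bicarbonate (chromosome 8, 85007202 to 85014531, minus strand, 10 exons). It was detected with 7 to 180 reads per library. Levels ran from 0.807 to 5.85 CPM (median 2.50) in EPR fl/fl and from 0.373 to 2.24 CPM (median 0.961) in EPR cKO. All 6 EPR cKO libraries lay below the control median and 3 lay below the lowest control, which was EPR fl/fl 6. Of these 3, EPR cKO 2 (0.806 CPM) was nearly level with that control (0.807 CPM). With means of 2.71 ± 1.68 CPM and 1.08 ± 0.666 CPM, the log2 fold change was −1.32 (SE 0.46, 95% interval −2.32 to −0.33), or 0.400 of the control level, with an unadjusted p of 0.0132 and an edgeR adjusted p of 0.160. It stayed below 0 in the 10 alternatives (−1.63 to −1.32) and when any 1 of the 12 libraries was left out (−1.69 to −0.93), with adjusted p from 0.0303 to 0.308. In the same libraries all 10 goblet cell markers had negative log2 fold changes. Of these, 6 passed an adjusted p of 0.05 in edgeR, where 1.57% of all tested genes passed as lower. Their summed level ran from 13524 to 28643 CPM in EPR fl/fl and from 6209 to 8678 CPM in EPR cKO, and none was at 0. From similar Tff3 and C1galt1 in isolated crypts and from electron microscopy, the study proposes that goblet cells are present in EPR cKO colon. In these whole-tissue libraries Tff3, 1 of the 10 markers, had a log2 fold change of −0.53 (edgeR adjusted p = 0.0170). The part of goblet cell content in the Best2 value was not tested.

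Clca4b belongs to the CLCA family of secreted and membrane proteins that modulate calcium-activated chloride channels (chromosome 3, 144910921 to 144932529, minus strand, 14 exons). It ran from 3.74 to 17.7 CPM (median 10.1) in EPR fl/fl and from 6.48 to 42.3 CPM (median 14.6) in EPR cKO. Replicates 6 (42.3 CPM), 3 (30.4 CPM) and 2 (20.1 CPM) of EPR cKO lay above all controls, and the other 3, at 6.48 to 9.17 CPM, lay below the control median. The log2 fold change was 0.99 (SE 0.51, 95% interval −0.11 to 2.09, edgeR adjusted p = 0.322), so neither a 4.26-fold rise nor a level slightly below the controls lay outside the interval. Of the 50-base stretches of Clca4b transcripts, 24.8% also occur in another gene, mainly Clca4a, and reads of the pair may have been split between them. Clca4a, named for this reason after its values were seen, averaged 474 ± 244 CPM in the controls and 834 ± 194 CPM in EPR cKO (log2 fold change 0.81, SE 0.32, edgeR adjusted p = 0.200).

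The 2 basolateral loaders of secretion had log2 fold changes of −0.27 and 0.06, neither past the test. Slc12a2 encodes NKCC1, which brings chloride into crypt cells with sodium and potassium (chromosome 18, 57878678 to 57946821, plus strand, 27 exons). It ran from 347 to 609 CPM (median 475) in EPR fl/fl and from 323 to 436 CPM (median 407) in EPR cKO. All 6 EPR cKO libraries lay below the control median and 1, EPR cKO 1, lay below the lowest control. The means were 475 ± 98.1 CPM and 395 ± 43.5 CPM, which gave a log2 fold change of −0.27 (SE 0.13, 95% interval −0.55 to 0.02, edgeR adjusted p = 0.302). The estimate was below 0 in all 10 alternatives (−0.62 to −0.18) and in the 12 fits without 1 library (−0.34 to −0.19). Slc4a4, the sodium-bicarbonate cotransporter NBCe1 (chromosome 5, 88886818 to 89239653, plus strand, 27 exons), ran from 124 to 171 CPM (median 158) in EPR fl/fl and from 144 to 179 CPM (median 161) in EPR cKO. In EPR cKO 3 of 6 libraries lay above the control median and 1 above the highest control. Its log2 fold change was 0.06 (SE 0.09, edgeR adjusted p = 0.706), and the 95% interval of −0.12 to 0.25 allows 0.917 to 1.19 times the control level.

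Atp12a encodes the catalytic subunit of the colonic proton-potassium pump, which is best known from the distal colon (chromosome 14, 56365068 to 56388550, plus strand, 23 exons). It was covered by 7 to 81 reads per library. Levels ran from 0.877 to 3.59 CPM (median 1.77) in EPR fl/fl and from 0.218 to 4.46 CPM (median 1.04) in EPR cKO, a 20.4-fold range within the latter group. In CPM, EPR cKO 1 was the highest of the 12 libraries and EPR cKO 5 the lowest, as for Slc26a6. In TPM, EPR fl/fl 6 (1.19 TPM) and EPR fl/fl 1 (1.06 TPM) were above EPR cKO 1 (1.02 TPM), whose TPM was low for its CPM. The 5 EPR cKO libraries other than EPR cKO 1 (0.218 to 1.30 CPM) lay below the control median, and 3 of them lay below the lowest control. The log2 fold change was −0.49 (SE 0.58, 95% interval −1.74 to 0.76, edgeR adjusted p = 0.664), and −1.27 without EPR cKO 1 (adjusted p = 0.0637). An antisense gene, Gm10873, covers 14.1% of the Atp12a exon bases and had 0 reads in all 12 libraries.

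The levels were also set against the epithelium of the same library, where these transporters do their work in salt transport. The 13 epithelium markers summed to 10697 to 15306 CPM in EPR fl/fl and 12655 to 18784 CPM in EPR cKO. All 13 had positive log2 fold changes with a median of 0.24, and 0 passed an adjusted p of 0.05 in edgeR. At an unadjusted p under 0.05, 4 were higher and 0 lower, where 11.1% of all tested genes were higher and 7.12% lower. Per 1000 CPM of these markers, Slc12a2 ran from 22.7 to 56.9 CPM in EPR fl/fl and from 19.5 to 27.6 CPM in EPR cKO, and Best2 from 0.0527 to 0.410 CPM and from 0.0198 to 0.123 CPM. All 6 EPR cKO libraries lay below the control median for both genes. Slc26a3 ran from 12.1 to 27.3 CPM in EPR fl/fl and from 14.3 to 48.2 CPM in EPR cKO on this scale, with 4 of 6 EPR cKO libraries above the control median. For Slc9a2, Slc4a4, Cftr and Slc26a6, 5 of 6 EPR cKO libraries lay below the control median per epithelium. When the whole table was scaled in this way, the median log2 fold change of all genes became −0.29, and those of Slc9a2 (−0.17), Slc4a4 (−0.25), Cftr (−0.34) and Slc26a6 (−0.25) turned negative. Below that median lay Best2 (−1.63, edgeR adjusted p = 0.0875), Atp12a (−0.66), Slc12a2 (−0.62, adjusted p = 0.0972), Slc9a3 (−0.41) and Cftr. Above it lay Clca4b (0.67), Slc26a3 (0.39, adjusted p = 0.310), Slc9a2, Slc4a4 and Slc26a6.

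Ratios between the genes within a library do not depend on library scaling. The pairs were formed after the values were seen and are given as descriptions. The ratio of Slc26a3 to Slc12a2 in TPM ran from 0.805 to 1.92 (median 1.26) in EPR fl/fl and from 1.34 to 4.23 (median 2.36) in EPR cKO. It was above the control median in all 6 EPR cKO libraries and above the highest control in 5. The exception was EPR cKO 3. Slc26a3 to Cftr ran from 2.24 to 6.21 (median 3.61) and from 3.84 to 10.4 (median 5.10), with 6 of 6 above the control median and 2 above the highest control. The pair of electroneutral uptake, Slc26a3 to Slc9a3, spread widely in both groups, from 1.08 to 4.51 (median 1.74) in EPR fl/fl and from 1.54 to 7.40 (median 2.64) in EPR cKO. The pair of chloride secretion, Cftr to Slc12a2, was the tightest of the 5 pairs formed, at 0.307 to 0.400 (median 0.352) in EPR fl/fl and 0.308 to 0.589 (median 0.404) in EPR cKO, where 4 of 6 libraries lay above the highest control.

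**Figure D3:**
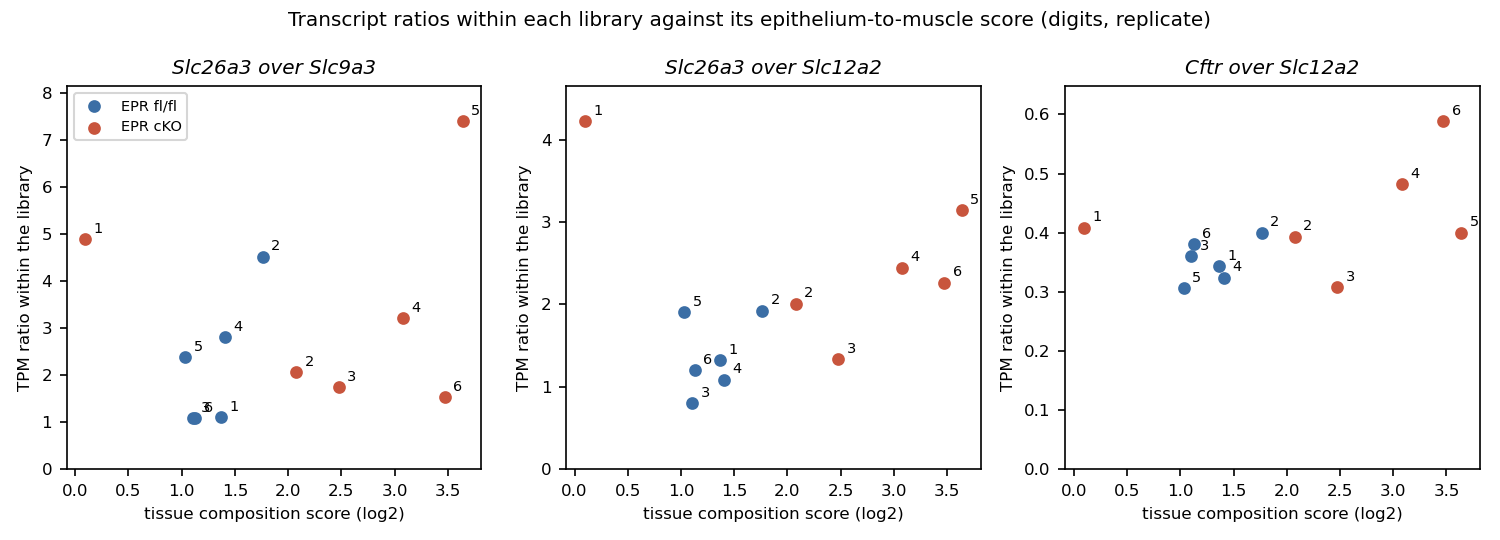
Ratio of 2 transporter transcripts in TPM within each library (y axes, linear) against the tissue composition score of the library (x axes, log2 units), with the replicate as a digit, EPR fl/fl in blue and EPR cKO in red. For Slc26a3 over Slc12a2, 5 of the 6 EPR cKO libraries lie above the highest control (1.92), among them replicate 1 with the lowest score and replicate 5 with the highest.

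The rest of the transport machinery was read from 5 lists with 90 genes in the table, of which 66 were tested. Of these, 2 were higher and 1 was lower in EPR cKO at an edgeR adjusted p under 0.05 (4.55%, against 2.46% of all tested genes), and the median log2 fold change was 0.05. None of the 7 tested SLC26 and SLC4 transporters passed in edgeR (1 at an unadjusted p under 0.05, and 0 in DESeq2), with a median of −0.03. Without EPR cKO 1, and also with limma-voom with quality weights, 2 were called lower (Slc4a3 and Slc4a8, named after their values were seen). Over all tested genes, those fits called 2273 and 1891 lower. Of the SLC26 and SLC4 genes, Slc26a2, a sulfate transporter, had the smallest p, at 970 ± 112 CPM against 1123 ± 95.1 CPM (log2 fold change 0.21, SE 0.09, adjusted p = 0.252). Scaled to the epithelium list, its log2 fold change became −0.10. None of the 7 other sodium-proton exchangers passed in edgeR (0 at an unadjusted p under 0.05, and 0 in DESeq2), with a median of −0.08, and the count was 1 lower without EPR cKO 1. Slc9a4 had the smallest p, at 0.844 ± 0.0904 CPM against 1.09 ± 0.181 CPM (0.38, SE 0.18, adjusted p = 0.280).

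Among 16 tested chloride channels and CLCA proteins, Clcn2 rose and Clca1 fell in edgeR, with a median of 0.08. At an unadjusted p under 0.05, 5 were higher and 3 lower, where 11.1% of all tested genes were higher and 7.12% lower. DESeq2 called 1 higher and 1 lower, against 440 and 473 of all 15952 tested genes. Over the 12 fits without 1 library, the call of Clcn2 was lost in 9 and that of Clca1 in 5. Clcn2 encodes ClC-2, a chloride channel of colonocytes, and ran from 147 to 216 CPM (median 181) in EPR fl/fl and from 199 to 299 CPM (median 266) in EPR cKO. It lay above all controls in 5 of 6 EPR cKO libraries, EPR cKO 1 being the exception. Its log2 fold change was 0.51 (SE 0.11, edgeR adjusted p = 0.0328). Clca1, a metalloprotease that goblet cells secrete with mucus, ran from 1921 to 4419 CPM in EPR fl/fl and from 689 to 1830 CPM in EPR cKO, with no overlap, where 1.47% of all tested genes were lower without overlap. The log2 fold change was −1.36 (SE 0.28, edgeR adjusted p = 0.0240). Clca1 is also 1 of the 10 goblet cell markers whose summed levels are given above, and their part in its fall was not tested. The channel gene Ano1, named after its values were seen, is known from pacemaker cells of the gut wall. It was at 63.2 ± 9.53 CPM against 39.3 ± 18.8 CPM (−0.69, SE 0.24, adjusted p = 0.167), beside Kit, a marker of the same cells, which fell (−1.25, adjusted p = 0.00740). The other 2 of the 3 markers of these cells, Etv1 (−0.16, adjusted p = 0.840) and Gja1 (−0.20, adjusted p = 0.738), did not pass in edgeR. In EPR cKO 1, Ano1 (74.0 CPM) lay within the control range of 53.6 to 77.9 CPM. Kit in that library (75.8 CPM) lay below the lowest control (76.9 CPM).

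None of the 14 tested cotransporters, sodium pumps and potassium channels passed in edgeR (1 at an unadjusted p under 0.05, and 0 in DESeq2), with a median of −0.07. Without EPR cKO 1, 5 were called lower, and with limma-voom with quality weights 4, among them Fxyd3 and the potassium channel gene Kcnma1 in both. Over all tested genes, those fits called 2273 and 1891 lower. Fxyd3, a regulator of the sodium pump, had the smallest p of this list, at 23.2 ± 1.88 CPM against 16.5 ± 4.52 CPM (−0.49, SE 0.17, adjusted p = 0.164). It fell with the tissue composition score as a covariate (−0.97, adjusted p = 0.000233). No EPR cKO score lay inside the control range of 1.03 to 1.76, so genotype and score could not be well separated in that fit. Genes of the basolateral side with log2 fold changes near 0, named after their values were seen, were Atp1b1 (0.10), a sodium pump subunit gene, and the potassium channel genes Kcnq1 (0.06) and Kcne3 (0.08), with edgeR adjusted p from 0.571 to 0.858.

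Of 22 tested regulators of transport, 1 rose and 0 fell in edgeR, with a median of 0.06. At an unadjusted p under 0.05, 6 were higher and 3 lower, where 11.1% of all tested genes were higher and 7.12% lower. DESeq2 called 4 higher and 1 lower, against 440 and 473 of all 15952 tested genes. The gene that rose was Chp2, which encodes a calcineurin B homologous protein that binds sodium-proton exchangers. It ran from 66.9 to 105 CPM (median 77.0) in EPR fl/fl and from 105 to 132 CPM (median 115) in EPR cKO. All 6 EPR cKO libraries lay above all controls, where 1.0% of all tested genes were higher without overlap. The log2 fold change was 0.52 (SE 0.12, edgeR adjusted p = 0.0332). Of genes named after their values were seen, the peptide gene Guca2a (guanylin, which activates chloride secretion) had a log2 fold change of 0.46 (adjusted p = 0.0709) and its receptor gene Gucy2c of 0.03 (adjusted p = 0.871). When each of the 12 libraries was left out in turn, the calls of Clcn2 and Chp2 were each lost in 9 fits (adjusted p up to 0.102 and 0.0910). Each held without EPR fl/fl 2 and without EPR cKO 1, Clcn2 also without EPR fl/fl 6 and Chp2 also without EPR fl/fl 5. With the tissue composition score as a covariate the adjusted p was 0.151 for Clcn2, 0.120 for Chp2 and 0.136 for Clca1. The limit given for Fxyd3 holds here too, as no EPR cKO score lay inside the control range. Scaled to the epithelium list, the log2 fold changes of Clcn2 and Chp2 were 0.21 (adjusted p = 0.144) and 0.22 (adjusted p = 0.219). Their calls were also lost with total counts (adjusted p = 0.108 and 0.0917), and that of Clcn2 without the low-count filter (adjusted p = 0.0590). The call of Clca1 was lost without EPR fl/fl 1 or 3 and without EPR cKO 3, 5 or 6 (adjusted p up to 0.0648).

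**Figure D4:**
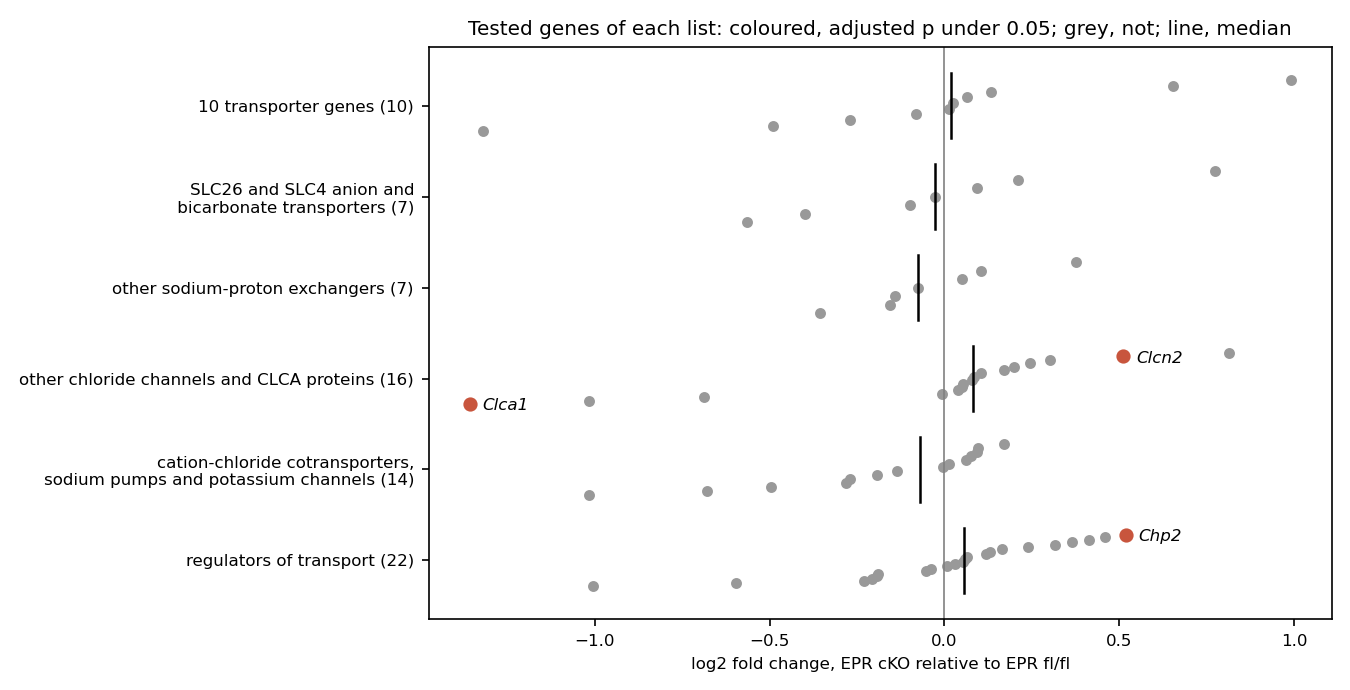
Log2 fold change (x axis, EPR cKO relative to EPR fl/fl) of every tested gene in the 10 transporter genes and in 5 lists of related genes, with the number tested in brackets. Red points had an edgeR adjusted p under 0.05 (Clca1, Clcn2 and Chp2), grey points did not, and black lines are medians, which lie between −0.08 and 0.08.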

How the data were processed

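The deposited values were raw counts per gene in 12 libraries, neither normalized nor filtered. The authors made stranded libraries depleted of ribosomal RNA from the proximal part of each colon, sequenced them as paired ends, aligned them to mm10 with STAR 2.5.3a and counted them with featureCounts on an Ensembl GRCm38 annotation. Whether counting used the strand, and how multi-mapped reads were treated, is not given in the sources used here. Groups came from the sample titles, and each count column was matched to its sample by name. Cage and litter of the mice are not given in the sources used here. The p-values treat the 12 animals as independent, which could not be checked.

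Tests used edgeR 4.0.16 in R 4.3.3 (quasi-likelihood F test, TMM scaling, all 12 libraries, no covariate, a filter of at least 1 CPM in at least 4 libraries as in the study). The SE was the absolute log2 fold change divided by the square root of F, and 95% intervals used the t distribution of the fit. TPM was computed here from the deposited summed exon lengths, over all genes of the table. Single measures were compared by exact permutation over 924 assignments. Shared stretches were counted in GENCODE M21 transcripts. The test was first checked on simulated counts.

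The 10 genes and all lists were chosen with earlier results of these data known. Named genes were the 10, EPR, the called genes of each list (or the one with the smallest p), and Epcam, Muc2 and Myh11 as tissue checks. Epcam averaged 1287 ± 123 CPM in the controls and 1480 ± 207 CPM in EPR cKO, and Muc2 8027 ± 3589 CPM and 1760 ± 351 CPM. Alternatives were DESeq2 1.42.0, limma 3.58.1 voom with and without quality weights, other scalings and filters, a replicate block, a tissue composition covariate and leaving out each library. Scaling to the epithelium list was chosen after seeing the data.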

Additional observations from a re-analysis of the deposited data

Results flagged for a closer look

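Each set of 6 values was searched for a library whose gap to its nearest neighbour exceeded the 95% limit of Dixon's test. Of 54 sets, 7 held such a library, where chance alone gives about 1 in 20, or 2.7. Of the transporter genes, Best2 was at 5.85 CPM in EPR fl/fl 2, against at most 2.63 CPM in the other controls, and its log2 fold change without that library was −0.93. Atp12a was at 4.46 CPM in EPR cKO 1, against at most 1.30 CPM in the other EPR cKO libraries. The same library had 3202 CPM of Myh11. The TPM ratio of Slc9a2 to Slc9a3 was 2.94 in EPR cKO 5, against at most 1.75 in the rest of its group. That library also had the lowest Muc2 (1073 CPM, next 1735 CPM) and the largest total count (33211041, next 23552805). EPR was at 0.424 CPM in EPR cKO 2, against at most 0.134 CPM in the others.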

How the results depend on the processing

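The 10 transporter genes gave 0 calls in either direction under all alternatives and leave-one-out fits, except for 1 lower call (Best2) with limma-voom with quality weights. Over all tested genes, the counts of higher and lower calls were 141 and 251 in the main setting. They became 440 and 473 with the DESeq2 Wald test, 1372 and 1891 with limma-voom with quality weights, and 8 and 418 when scaled to the epithelium list. Higher calls numbered 39 with total counts, 54 without the low-count filter and 90 with the tissue composition covariate, where the lower count stayed within 1.5 times the main one. Leaving out 1 library gave 28 to 1178 higher and 145 to 2273 lower calls, both the most without EPR cKO 1. Replicate numbers did not pair the libraries. The correlation of same-numbered libraries ran from −0.242 to 0.34, and 2 of 6 control libraries correlated best with the EPR cKO library of their own number. The replicate block gave 67 higher and 178 lower calls over all genes, 0 of the 10 transporter genes, and adjusted p of 0.0676 for Clca1 and 0.0646 for Chp2.

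Slc26a6 turned negative with total counts (−0.01), no filter (−0.0014), limma-voom (−0.05), quality weights (−0.06), the replicate block (−0.02) and epithelium scaling (−0.25), and ran from −0.18 to 0.16 over the fits without 1 library. Cftr turned negative with total counts (−0.0095), no filter (−0.01), the covariate (−0.21) and epithelium scaling (−0.34), and ran from −0.07 to 0.11 without 1 library. Slc9a3 was 0.15 with quality weights and ran from −0.26 to 0.12 without 1 library, Atp12a was 0.11 with the covariate, Slc9a2 −0.17 and Slc4a4 −0.25 with epithelium scaling. Outside the 10 genes, epithelium scaling turned Slc26a2 (−0.10) and Epcam (−0.12), and the covariate turned Myh11 (0.14). The cause of these changes was not tested. Among the related lists, regulators went from 1 higher and 0 lower to 4 and 1 with the DESeq2 Wald test, 2 and 1 with limma-voom, 5 and 2 with quality weights, and 3 and 3 without EPR cKO 1. Chloride channels went from 1 higher and 1 lower to 2 and 2 with quality weights and 3 and 2 without EPR cKO 1. Lower calls without EPR cKO 1 were 5 of the cotransporters, pumps and potassium channels, 2 of the SLC26 and SLC4 genes and 1 of the sodium-proton exchangers, against 0 of each in the main setting. Best2, Slc26a6 and Atp12a had 180 reads or fewer in every library, but SE did not follow depth alone, being 0.24 for Slc26a6 and 0.29 for the abundant Slc9a3.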
